A study of Mus musculus with 24 samples.

Results

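The step from spermatocytes to round spermatids was followed in testes of Nutm1 knockout (KO) mice, as KO round spermatids against KO spermatocytes on Illumina bead arrays. The arrays were chosen by their titles: 3 of KO round spermatids and 3 of KO spermatocytes, 6 of the 24 arrays in all. RNA of both stages came from adult males of the B6/129sv background. KO animals lack Nutm1, although the design text of the series also speaks of a knock down, and how the allele was made is not given in the sources used here. Each of the 3 KO cell preparations pooled the testes of 3 mice, and germ cells were parted by size on an albumin sedimentation gradient. The fractions are thus enriched rather than pure, and the protocol describes the postmeiotic one as holding round and early elongating spermatids. Arrays with the same replicate number share a preparation. The other 6 KO arrays carry mixtures of these RNAs (replicates 1 and 2, 2 and 3, and 1 and 3). They were normalized with the rest but stayed out of the main fit and served as a check. WT round spermatids and WT spermatocytes, of the same background and with 2 mice per preparation (3 arrays each), gave the same stage step with Nutm1 present.

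Spermatocytes are the cells in meiosis. Round spermatids are their haploid products, which build the acrosome and the sperm tail and later exchange histones for transition proteins and then protamines. In spermatocytes the X and Y chromosomes are silenced as the sex body, and a set of X- and Y-linked genes is transcribed again after meiosis. Nutm1 encodes Nut, a protein of spermatids that recruits the acetyltransferase p300 to chromatin, where histone H4 becomes hyperacetylated before histones are removed.

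Signals are given as normalized log2 values, on which a difference of 1 is 2-fold, and each difference is KO round spermatids minus KO spermatocytes with its standard error (SE) from the fit. Values of different genes come from different probes and were not set against each other. Of 45281 probes, 15524 to 15795 were detected on the KO round spermatid arrays and 14445 to 16244 on the KO spermatocyte arrays, where detected means a detection p under 0.01. Across the 12705 genes and unnamed probes tested, the 3 KO round spermatid arrays correlated at 0.981 to 0.987. KO spermatocyte replicates 2 and 3 correlated at 0.980, but replicate 1 reached only 0.940 with replicate 2 and 0.953 with replicate 3. The mixed KO spermatocyte array labelled as replicates 1 and 2 was closer to replicate 3, at 0.982, than to replicate 1, at 0.932, or to replicate 2, at 0.950, and 9.18% of genes lay there more than 1 log2 unit outside both of its stated sources. For the other 5 mixed KO arrays that share was 0.378% to 2.81%. The mixed arrays labelled as replicates 1 and 3 also correlated better with the replicate they should not hold than with the mean of their stated sources, at 0.993 against 0.990 for KO round spermatids and 0.967 against 0.959 for KO spermatocytes. The gap for KO round spermatids is small, and only 0.378% of genes lay outside both sources there. Whether any of these arrays is mislabelled could not be settled. All 24 arrays were normalized together, but beyond that no result below rests on a mixed array unless it says so.

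Markers of other testis cells differed between the fractions. Of 15 measured macrophage genes 13 were higher in KO round spermatids, beside 26.4% of all genes tested. The mean signal of the 15 was 8.38, 7.18 and 8.03 in KO round spermatids, against 6.31, 5.64 and 5.40 in KO spermatocytes. The 3 measured hemoglobin genes, which mark red blood cells, averaged 8.81, 8.79 and 7.66 in KO round spermatids, against 5.90, 5.37 and 5.98 in KO spermatocytes. These 2 lists did not overlap between the stages. Leydig cells, which make steroids, went the other way: their 5 genes averaged 7.62, 5.83 and 7.05 in KO round spermatids, against 12, 7.48 and 9.52 in KO spermatocytes, highest by far in replicate 1. Of 10 Sertoli cell genes 7 were higher, beside the same 26.4% of all genes. The 10 averaged 7.59, 8.03 and 8.34 in KO round spermatids, against 7.52, 6.64 and 6.61 in KO spermatocytes. Of 7 peritubular and endothelial genes 1 was higher, Dcn, and 0 lower, shares below the 26.4% and 24% of all genes. In both stages replicate 1 had the highest Leydig signal and replicate 2 the lowest. Of the 5 Leydig genes 3 were lower, beside 24% of all genes. This count was 5 with preparation as a block or without KO spermatocyte replicate 2, and 1 without KO round spermatid replicate 2.

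**Figure D1:**
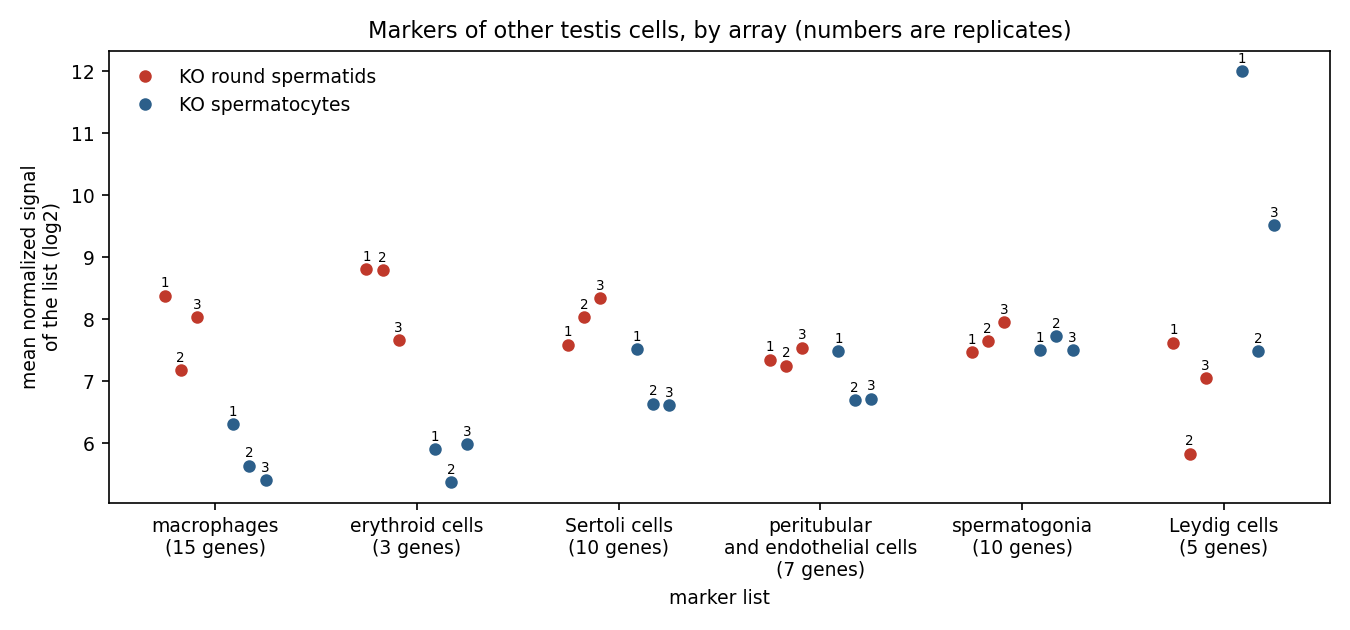
Mean normalized signal (log2, vertical axis) of the measured genes of 6 marker lists of other testis cells, with 1 point per array for KO round spermatids (red) and KO spermatocytes (blue). Macrophage and red blood cell markers sit higher in all 3 KO round spermatid arrays, and the Leydig list reaches 12 in KO spermatocyte replicate 1.

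The targeted gene was measured by 1 probe, whose place relative to the deleted sequence is not given, so it checks the labels only in part. Nutm1 had 6.81, 6.75 and 7.03 in KO round spermatids, against 5.51, 5.69 and 5.67 in KO spermatocytes, where 2 of 3 arrays detected it. In WT round spermatids it had 8.52, 8.40 and 8.18, above every KO round spermatid array, and in WT spermatocytes 5.76, 6.17 and 6.89. The KO stage difference was 1.24 ± 0.24 (SE, adjusted p = 0.00148), against 2.09 in WT, and these differences did not differ by the limma test (adjusted p = 0.275).

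Between KO round spermatids and KO spermatocytes 6399 of 12705 genes changed, or 50.4%, by limma at an adjusted p under 0.05. KO round spermatids were higher for 3351 genes (26.4%) and lower for 3048 (24%). The arrays of the 2 stages did not overlap for 7354 genes (57.9%), so a lack of overlap alone sets no gene apart. By fitted difference 2058 of the higher and 1541 of the lower genes changed at least 2-fold, 248 and 226 at least 4-fold, and 11 and 45 at least 8-fold. With genes undetected in the lower stage (420 of the higher and 345 of the lower) at their bounds, 1916 and 1410 reached 2-fold. Since cells were pooled, fewer cells of a type and less RNA per cell cannot be told apart in any of these values.

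The 12 largest rises were led by genes of other cells. Dcn, Cd74, Laptm5, C1qc, Fcrls, C1qb, Lyz1, Lyz2, Cd209f and Dab2 are known from connective tissue cells or macrophages. They were higher in the same stage as the macrophage list. Dcn belongs to the peritubular and endothelial list, of which it was the 1 higher member. Cd74, the invariant chain of class II antigen presentation, had 9.33, 8.19 and 9.17 in KO round spermatids, against 6.21, 4.96 and 4.98 in KO spermatocytes. It followed the macrophage means of the same arrays in being lowest in replicate 2 of the round spermatids and highest in replicate 1 of the spermatocytes. How much of these 10 rises comes from macrophages or connective tissue cells in the fractions was not tested. The remaining rises were X-linked. Tgif2lx1, a homeobox gene of germ cells, had 8.32, 9.10 and 8.88 in KO round spermatids, against 5.73, 5.83 and 5.99 in KO spermatocytes, a difference of 2.91 ± 0.26 (SE, adjusted p = 1.47e-05). Slc38a5, an amino acid transporter, was detected on no KO spermatocyte array and was at least 5.31-fold higher in KO round spermatids (adjusted p = 3.14e-05). Its 8.63, 8.11 and 7.33 in KO round spermatids were lowest in replicate 3, as were the hemoglobin means. Which cells of the fractions this signal came from was not tested.

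The 12 largest falls mixed germ cell genes with Leydig genes. Septin12, a septin of the male germ line, had 6.00, 5.50 and 5.69 in KO round spermatids, against 10.49, 10.78 and 10.11 in KO spermatocytes, the largest fall of all at -4.73 ± 0.25 (SE, adjusted p = 1.36e-06). Its KO round spermatid values were detected but lay near the lowest detected signals of those arrays, 5.49, 5.50 and 5.54, which limits the size given. Fam13c fell by 3.85, Chst1, a sulfotransferase, by 3.58, Kbtbd6 by 3.55, Tdrd5, a Tudor protein of the germ granule, by 3.53 and Mgll, the monoacylglycerol lipase, by 3.46. In all of these the 3 arrays of each stage lay well apart, but only genes whose stages do not overlap could enter this list. Myorg fell by 3.94, but its other measured probe gave a difference of 0.69 in the opposite direction. Klk1b27, Klk1b21, Klk1b24, Cyp17a1 and Ces1d fell by 3.62 to 4.55 and moved with the Leydig list, of which Cyp17a1 is itself a member. Without KO spermatocyte replicate 1, the array of highest Leydig signal, the differences were -3.30 for Klk1b27, -3.39 for Klk1b21, -2.63 for Klk1b24, -2.80 for Cyp17a1 and -2.32 for Ces1d. Cyp17a1, an enzyme of androgen synthesis, had 9.63, 6.56 and 9.10 in KO round spermatids, against 14.78, 9.94 and 12.53 in KO spermatocytes, and without KO round spermatid replicate 2 it no longer passed (-3.05, adjusted p = 0.0594).

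Since the largest rises were led by genes of other cells, some genes with the smallest p are described next. They changed at least 4-fold by fitted difference and were chosen after their values were seen. Among genes passed over, Il31 rose by 2.85. Gzmd, detected on no KO spermatocyte array, was at least 3.79-fold higher. Both had a smaller p than Prss46 and Ms4a5. Prss46, a serine protease of the testis, had 11.88, 11.99 and 11.98 in KO round spermatids, against 9.68, 9.29 and 9.43 in KO spermatocytes. Ms4a5 had 11.06, 11.01 and 11.19, against 8.91, 8.85 and 8.75 in KO spermatocytes. The stage differences of Prss46 and Ms4a5 were 2.48 and 2.25, and their choice required that the stages did not overlap. Glipr1l1, a sperm surface protein, had 10.14, 10.64 and 10.46 in KO round spermatids, against 7.55, 7.83 and 7.80 in KO spermatocytes (2.69 ± 0.20, SE, adjusted p = 6.43e-06). Among falls of this kind, Rassf1, a tumor suppressor that binds microtubules, had 10.47, 10.26 and 10.41 in KO round spermatids, against 12.82, 12.86 and 12.95 in KO spermatocytes. Sap30, a subunit of the Sin3 deacetylase complex, fell by 2.75, and Slc1a3, a glutamate transporter, by 3.26.

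The stage labels were checked against marker genes. Of 10 measured round spermatid markers 8 were higher in KO round spermatids and 0 lower, beside 26.4% of all genes higher, with a median difference of 1.55 against 0.01 over all genes. Spaca1, a membrane protein of the acrosome, had 11.96, 12.53 and 12.44 in KO round spermatids, against 10.44, 10.45 and 10.22 in KO spermatocytes. Izumo1, the sperm protein that binds the egg, had 11.47, 11.86 and 11.89, against 9.78, 9.74 and 9.77 in KO spermatocytes. Acrv1, an acrosomal vesicle protein, had 12.98, 13.16 and 13.35, against 11.86, 11.61 and 11.52 in KO spermatocytes. In these markers no arrays of the stages overlapped, as for 57.9% of all genes. Catsper3, a subunit of the sperm calcium channel, differed by 1.79 ± 0.34 (SE, adjusted p = 0.00118), and Tssk2, a kinase of spermatids, by 1.60 ± 0.32 (SE, adjusted p = 0.00155). Spaca7 lost its call without KO round spermatid replicate 2 (1.35, adjusted p = 0.0597). Prm1 and Acrbp did not pass. Acrbp, which binds the protease acrosin, had 13.10, 12.68 and 12.93 in KO round spermatids, against 13.04, 12.80 and 12.45 in KO spermatocytes, although its other probe differed by 1.45.

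Of the 12 spermatocyte markers only 7 were measured, and Sycp3, Hormad1, Tbpl1, Mybl1 and H1f6 were not above the detection filter. Of these 7, 3 were lower in KO round spermatids and 0 higher, beside 24% and 26.4% of all genes. Piwil1, a Piwi protein of pachytene spermatocytes, had 12.09, 11.75 and 11.87 in KO round spermatids, against 14.36, 14.73 and 14.80 in KO spermatocytes. Pou5f2, a germ cell POU factor, had 9.16, 9.21 and 9.54, against 12.48, 12.48 and 12.17 in KO spermatocytes. Spag6l, an axoneme protein, fell by 0.84 (adjusted p = 0.000911). Ldhc, the lactate dehydrogenase of male germ cells, had 15.23, 15.15 and 15.20 in KO round spermatids, against 15.20, 15.01 and 15.20 in KO spermatocytes, and these overlapped. Ldhc was among the brightest 0.0236% of features, and whether signals near the top of the scale hide a difference was not tested. Ccna1, the germ cell cyclin A, did not pass, at 12.67, 12.50 and 12.49 in KO round spermatids, against 12.63, 11.80 and 11.58 in KO spermatocytes, but it was higher without KO spermatocyte replicate 1 (0.87, adjusted p = 0.0046). Sycp1, a component of the synaptonemal complex, did not pass either, and without KO spermatocyte replicate 3 it was higher (1.01, adjusted p = 0.0194). The spermatocyte label was thus borne out by Piwil1, Pou5f2 and Spag6l alone among these markers.

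**Figure D2:**
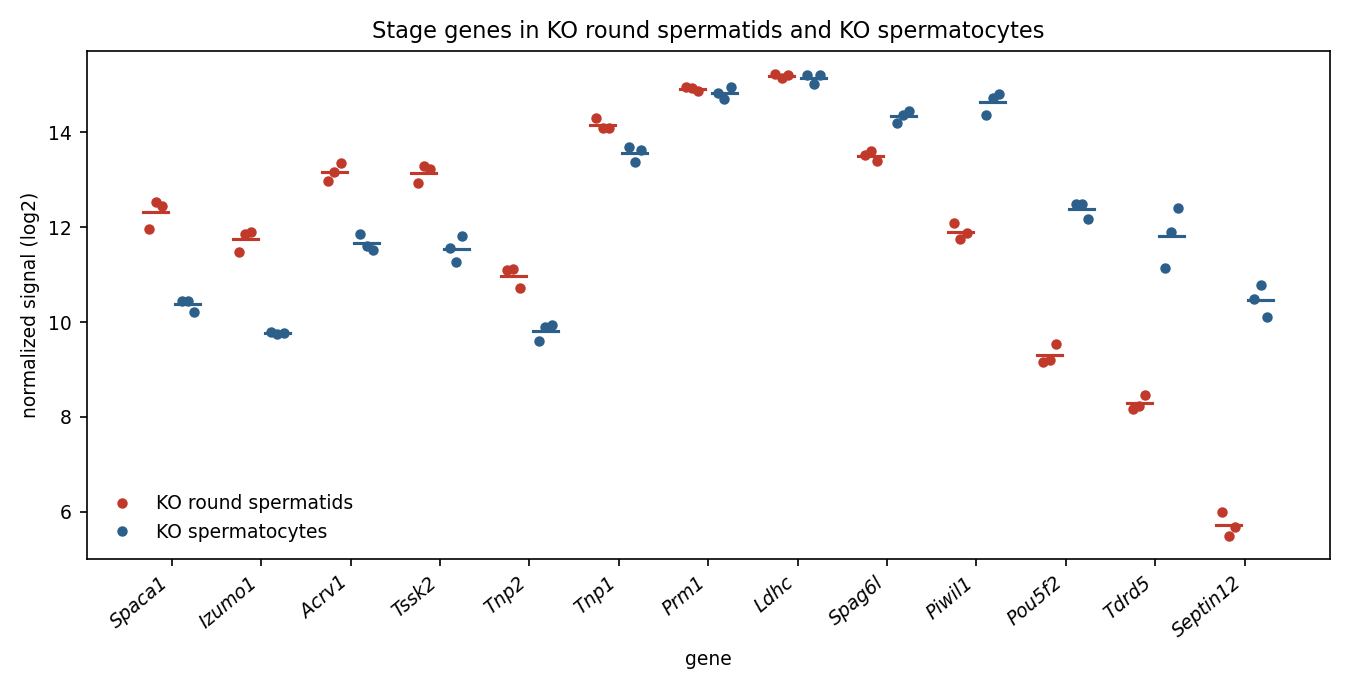
Normalized signal (log2, vertical axis) of 13 genes on each of the 3 KO round spermatid arrays (red, left of each pair) and 3 KO spermatocyte arrays (blue), with the mean of each as a bar. Acrosome genes sit higher in KO round spermatids, Piwil1, Pou5f2, Tdrd5 and Septin12 lower, and Prm1 and Ldhc overlap.

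Promoters of the risen genes were read because many spermatid genes are known targets of CREM, an activator that binds cAMP response elements (CRE). The 100 bases upstream of the start are shown for 5 genes named here that hold a CRE-like site and for Tnp2, which holds none in this window. These 5 all rose, but named genes that did not rise hold the site there too. Spag6l, which fell, holds TGACGTCA, and Prm1, which did not pass, holds TGACTTCA. Of the 199 genes named by rule 160 matched a promoter by symbol. Sequences are from RefSeq on GRCm38.p6, 5′ to 3′ on the strand of the gene, and capitals mark TGACNTCA on either strand, where N is any base. They lie at chr1:73015900-73015999 for Tnp1 (minus strand), chr16:17898537-17898636 for Tssk2 (plus), chr7:45621711-45621810 for Izumo1 (plus), chr7:30743682-30743781 for Gapdhs (minus), chr6:24857897-24857996 for Hyal5 (plus) and chr16:10788656-10788755 for Tnp2 (minus).
Tnp1: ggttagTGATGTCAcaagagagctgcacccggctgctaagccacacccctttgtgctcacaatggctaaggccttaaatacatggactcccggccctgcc
Tssk2: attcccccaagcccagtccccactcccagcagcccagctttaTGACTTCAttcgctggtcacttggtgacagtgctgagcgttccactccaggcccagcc
Izumo1: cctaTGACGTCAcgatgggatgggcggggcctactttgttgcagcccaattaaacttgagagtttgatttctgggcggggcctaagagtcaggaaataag
Gapdhs: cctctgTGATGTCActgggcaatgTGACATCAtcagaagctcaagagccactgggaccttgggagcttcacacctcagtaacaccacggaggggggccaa
Hyal5: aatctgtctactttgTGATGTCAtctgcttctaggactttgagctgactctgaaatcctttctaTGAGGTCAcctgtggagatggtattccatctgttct
Tnp2: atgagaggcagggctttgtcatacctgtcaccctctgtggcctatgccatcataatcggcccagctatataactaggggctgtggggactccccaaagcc

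In all, 4 motifs were searched on both strands of the 250 bases upstream of each start. The first CRE motif, the core TGACGT, hardly differed: it was in 8.92% of 1716 promoters of genes at least 2-fold higher, in 8.71% of 1298 promoters of genes at least 2-fold lower, in 9.13% of promoters of genes that did not pass and in 6.47% of all 32851 promoters. TGACNTCA was chosen after that result was known and after promoters of risen genes had been read, so its shares are a description with no test. It was in 14.6% of the promoters of genes at least 2-fold higher, in 6.55% of those at least 2-fold lower, in 5.91% of those that did not pass and in 7.49% of all promoters. By gene, the share with this site was 21.0% for differences above 2, 14.8% between 1 and 1.5, 8.08% between 0 and 0.5, 6.49% between -0.5 and 0 and 9.15% below -2. Its 4 forms were unequal. TGACATCA was in 7.75% of the promoters of genes at least 2-fold higher, 1.39% of those at least 2-fold lower and 1.75% of those that did not pass, whereas the palindrome TGACGTCA, which overlaps the core motif, was in 2.74%, 2.54% and 2.29% of the same promoters. In the WT step the share was 13.8% for genes at least 2-fold higher and 6.34% for genes at least 2-fold lower, so it was not particular to KO. The half-site GTTGCC of the X-box, which RFX factors bind, was in 13.5% of promoters at least 2-fold higher and 9.86% at least 2-fold lower. It was in 11% of those that did not pass and 10.4% of all. CAACTG, the letters that MYB factors bind, was in 10.6%, 9.01%, 8.55% and 11.1% of the same. By gene, GTTGCC was in 24.1% for differences above 2, against 14.1% between 0 and 0.5, and CAACTG in 18.5% against 10.4%. For differences below -2 the shares were 17.1% for GTTGCC, also above the middle class, and 10.4% for CAACTG. A higher share among the largest rises was thus not particular to the CRE-like site. The core TGACGT had 6.79% above 2, 10.7% between 0 and 0.5 and 9.15% below -2.

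Chromatin genes of the histone exchange were higher after meiosis. Of the 4 measured transition proteins and protamines 3 were higher in KO round spermatids, beside 26.4% of all genes. Tnp2 had 11.09, 11.12 and 10.71 in KO round spermatids, against 9.61, 9.90 and 9.93 in KO spermatocytes, and Prm3 had 11.55, 11.56 and 11.12, against 10.22, 10.01 and 10 in KO spermatocytes. Tnp1 had 14.30, 14.09 and 14.09, against 13.69, 13.37 and 13.63 in KO spermatocytes, a difference of 0.60 that did not pass without KO spermatocyte replicate 2 (0.51, adjusted p = 0.0523). The groups did not overlap in these 3 genes, as in 57.9% of all genes. They did in Prm1, at 14.95, 14.94 and 14.86 in KO round spermatids, against 14.83, 14.71 and 14.95 in KO spermatocytes. Prm1 was among the brightest 0.102% of features, with the same limit as Ldhc.

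Of 6 measured testis histone variants 5 were higher in KO round spermatids (26.4% of all genes) and 0 lower (24% of all), in every setting tried. H1f7, the linker histone of spermatids, had 12.37, 12.31 and 12.13 in KO round spermatids, against 10.94, 10.76 and 10.58 in KO spermatocytes. The short H2A variants H2al2a, H2al1m and H2al3 rose by 1.19, 1.11 and 1.21, and the H2B variant H2bl1 by 1.14. H2al2a works with the transition proteins when histones are replaced. Among 11 core and linker histones 3 were higher and 2 lower, shares not far from the 26.4% and 24% of all genes. The replication-coupled H3c1, H3c7 and H4c1 rose by 1.85, 1.87 and 1.51, while H3f3b, a gene of the replacement histone H3.3, had 10.74, 10.69 and 11.29 in KO round spermatids, against 12.38, 13.12 and 12.91 in KO spermatocytes. H2az1 fell by 1.00.

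Of 27 enzymes and readers of histone acetylation 9 were higher and 9 lower, shares not far from the 26.4% and 24% of all genes. Hdac4 was the 1 member whose KO and WT stage steps differed by limma at an adjusted p under 0.05. Hdac5, a class II deacetylase, had 11.17, 11.15 and 11.68 in KO round spermatids, against 9.51, 8.83 and 9.28 in KO spermatocytes, although 1 of its other probes differed by only 0.13. Kat7, the HBO1 acetyltransferase, had 9.60, 9.59 and 9.19, against 11.10, 11.24 and 11.67 in KO spermatocytes. Neither gene overlapped between stages, which held for 57.9% of all genes. Kat6b and Kat5, also acetyltransferases, fell by 1.39 and 1.26, and Brd3, a bromodomain reader, by 1.62. Kat2b, an acetyltransferase, and Cdyl, a chromodomain protein, rose by 1.69 and 1.21. Ep300, the gene of p300, differed by 0.32 and Brdt, the testis bromodomain reader, by -0.17, and neither passed.

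Acrosome genes that passed were nearly all higher. Of 28 measured members 16 were higher in KO round spermatids and 1 lower, with a median difference of 0.78, beside 26.4% of all genes higher and 24% lower. Zp3r, a zona pellucida receptor, had 8.41, 9.45 and 9.22 in KO round spermatids, against 5.89, 6.04 and 6.47 in KO spermatocytes, and Hyal5, a hyaluronidase, had 9.41, 10.58 and 10.09, against 7.11, 7.73 and 8.08 in KO spermatocytes. Both lay apart by more than 1 log2 unit. Spaca4 rose by 1.80, Tmem190 by 1.74, Eqtn by 1.88 and Spam1, another hyaluronidase, by 1.85. Agfg1, needed to fuse proacrosomal vesicles, was the 1 member that was lower, at -0.75.

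Of 22 genes of the accessory structures of the sperm tail 17 were higher and 0 lower (13 to 18 higher as single arrays were left out), beside the same 26.4% and 24%. Ropn1, a fibrous sheath protein, had 8.67, 9.53 and 9.07 in KO round spermatids, against 5.70, 6.21 and 6.69 in KO spermatocytes (2.89 ± 0.30, SE, adjusted p = 3.42e-05). Cabyr, its calcium-binding neighbor in the sheath, rose by 1.69, Tssk4, a kinase of the tail, by 1.86 and Fsip1 by 1.55. Akap4, the main sheath protein, differed by 1.14 and lost its call without KO spermatocyte replicate 2 (0.95, adjusted p = 0.0581). Of 28 genes of the axoneme, the microtubule core of the tail, 4 were higher, 11 lower and 13 did not pass, beside 26.4% of all genes higher and 24% lower, and the list median was -0.20. Iqcg had 6.17, 6.30 and 6.33 in KO round spermatids, against 8.42, 9.16 and 9.26 in KO spermatocytes. Dnah2, a dynein heavy chain, had 8.64, 8.45 and 8.29, against 10.02, 10.34 and 10.29 in KO spermatocytes. In these genes too no arrays overlapped, as in 57.9% of all genes. Ccdc39 and Ccdc40, the rulers that space dynein arms, fell by 1.31 and 1.28, and Spef1 by 1.56. The 4 higher axoneme genes, Dnali1, Dynll1, Cfap43 and Tppp2, were 2 without KO spermatocyte replicate 3.

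Ion channels and cAMP signalling of sperm had 8 of 16 members higher and 4 lower, beside 26.4% and 24% of all genes. Catsper1, the pore subunit of the sperm calcium channel, had 10.59, 11.16 and 10.84 in KO round spermatids, against 8.40, 8.72 and 8.95 in KO spermatocytes. Its partners Efcab9, Catsper3 and Catsper4 rose by 1.70, 1.79 and 1.54, and Lrrc52, a subunit of the sperm potassium channel, by 2.08. Of the auxiliary subunits, Catsperd fell by 0.56, and Catsperb, detected on no KO round spermatid array, was at least 1.39-fold lower. Pkd2l1, a cation channel, had 7.79, 8.11 and 8.13 in KO round spermatids, against 10.73, 11.33 and 11.27 in KO spermatocytes. One channel complex thus held members that rose and members that fell.

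Of 17 postmeiotic transcription regulators 10 were higher, beside 26.4% of all genes. Rfx4 and Kctd19 were lower, a count of 2 that was 1 with preparation as a block and without KO round spermatid replicate 2 or 3 or KO spermatocyte replicate 3. Crem itself differed by 0.61 and lost its call without KO round spermatid replicate 3 (0.48, adjusted p = 0.0872) or KO spermatocyte replicate 3 (0.50, adjusted p = 0.0669). Crem's coactivator Fhl5 (ACT) rose by 1.15 and Kif17, the kinesin that moves this coactivator, by 1.76. Spz1, a leucine zipper factor, had 11.69, 12.44 and 12.36 in KO round spermatids, against 9.49, 9.62 and 10.39 in KO spermatocytes. Rfx4 had 9.01, 9.08 and 8.80, against 10.36, 10.87 and 11.02 in KO spermatocytes, with other probes at -0.69 and 1.17, which disagree in sign. Sox30, which acts in the switch to spermatid genes, rose by 1.11, Taf7l by 1.57 and Jund by 1.62. Rfx2 differed by -0.39 and Tcfl5 by -0.03, and neither passed.

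**Figure D3:**
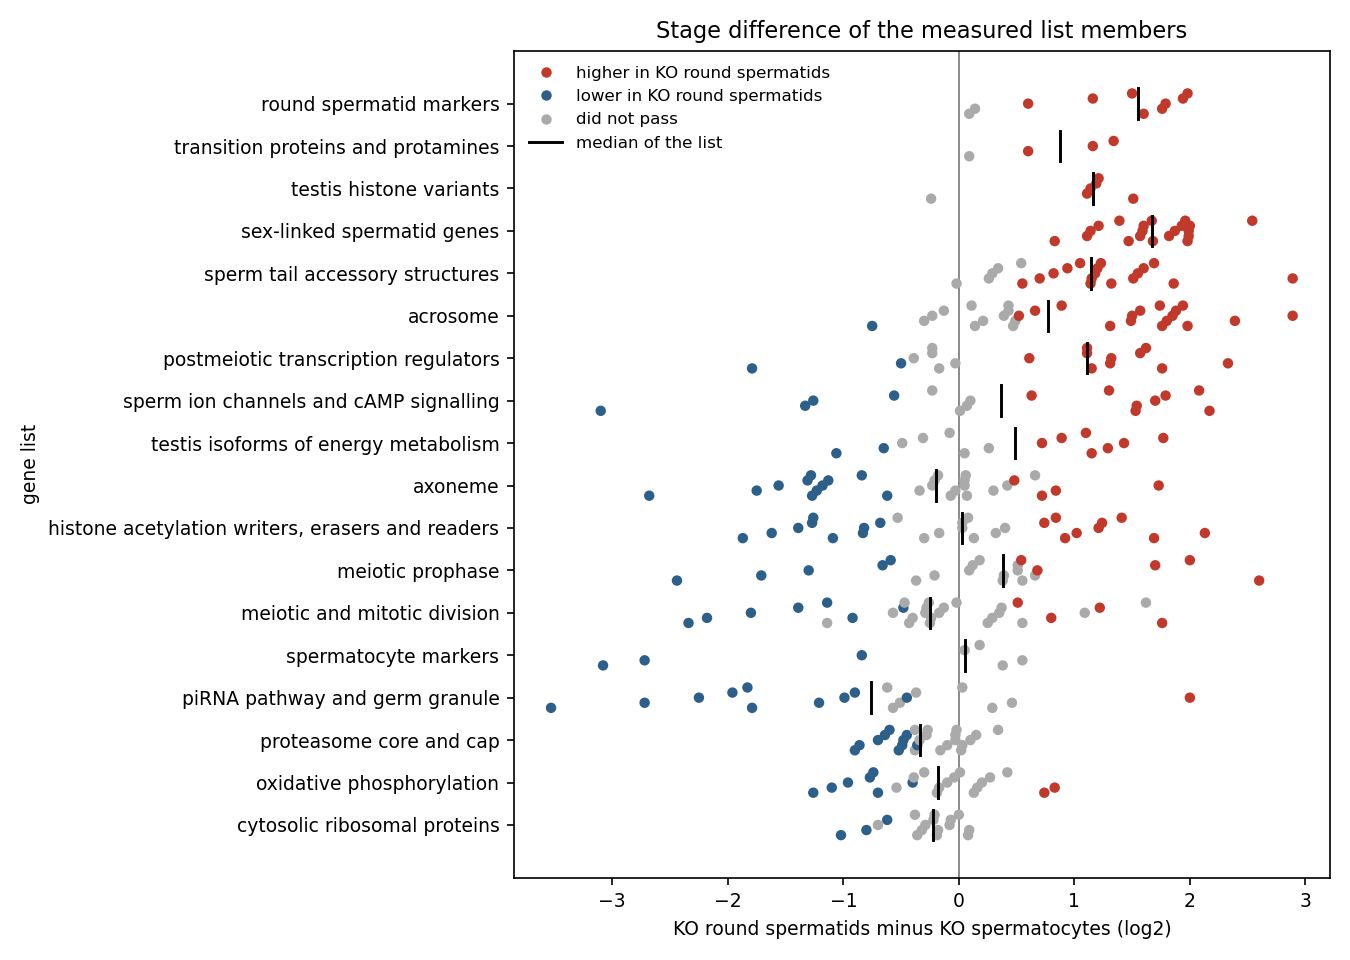
Stage difference (log2, horizontal axis) of every measured member of 18 gene lists, colored by whether it was higher or lower in KO round spermatids at an adjusted p under 0.05 or did not pass, with the list median as a bar. Spermatid lists lie right of 0, with all 20 sex-linked spermatid genes higher, the piRNA list lies mostly left, and the meiotic prophase list spreads from -2.44 to 2.60.

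Of 21 prophase genes 5 were higher and 5 lower in KO round spermatids, shares close to the 26.4% and 24% of all genes, and without KO spermatocyte replicate 3 there were 8 higher. Mlh3, a crossover protein, had 6.69, 6.75 and 6.77 in KO round spermatids, against 8.64, 9.40 and 9.49 in KO spermatocytes, and Spo11, which makes meiotic breaks, had 10.61, 10.53 and 11.47, against 12.27, 12.67 and 12.79 in KO spermatocytes. Both were lower, and their stages did not overlap, which held for 57.9% of all genes. Rec8, the meiotic cohesin, had 11.62, 11.83 and 11.83 in KO round spermatids, against 9.89, 9.49 and 9.90 in KO spermatocytes. Syce2, of the synaptonemal complex, was detected on no KO spermatocyte array and was at least 3.46-fold higher. Tex11, which is X-linked, rose by 1.70.

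Of 31 genes of the meiotic and mitotic divisions 7 were lower (24% of all genes) and 4 higher (26.4% of all). Without KO round spermatid replicate 2 the higher ones were 2. Cdk2, a kinase needed in meiotic prophase, had 10.37, 10.42 and 10.71 in KO round spermatids, against 12.32, 12.74 and 12.98 in KO spermatocytes, and its 3 other probes fell by 1.49 to 2.19. Sgo2a, the shugoshin that protects centromeric cohesin, had 7.94, 7.92 and 8.24, against 10.07, 10.35 and 10.71 in KO spermatocytes. Bub3, a checkpoint protein, and Kif2c, a microtubule depolymerase, fell by 1.80 and 1.39, while the phosphatase Cdc25c rose by 1.76. Of 14 replication genes 6 were higher and 1 lower, beside 26.4% and 24% of all genes. Without KO spermatocyte replicate 1 the higher ones were 3, and without KO round spermatid replicate 3 they were 2. The 1 lower, Gins2, lost its call without any 1 of KO round spermatid replicates 1 to 3 or KO spermatocyte replicates 1 and 2, and this count was also 0 without any 1 of the WT round spermatid arrays or WT spermatocyte replicate 2, and 2 without WT spermatocyte replicate 3. Fen1, the flap endonuclease, had 9.34, 9.10 and 9.39 in KO round spermatids, against 8.27, 8.25 and 7.96 in KO spermatocytes.

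The piRNA pathway, which silences transposons in germ cells, was mostly lower: 10 of 18 genes fell and 1 rose, beside 24% of all genes lower, and the list median was -0.76. Tdrd5 had 8.16, 8.23 and 8.46 in KO round spermatids, against 11.13, 11.90 and 12.41 in KO spermatocytes. Pld6, the nuclease Zucchini, had 7.90, 7.84 and 7.87, against 9.82, 10.41 and 10.12 in KO spermatocytes. These stages were far apart, as were those of Piwil1 above. Tdrd9, Tdrd1, Piwil2 and Mov10l1 fell by 1.83, 1.96, 1.79 and 1.21. Gtsf1, a Piwi cofactor, was the 1 that rose, at 9.62, 9.98 and 9.94 in KO round spermatids, against 7.47, 8.15 and 7.93 in KO spermatocytes, and leaving out KO spermatocyte replicate 3 or WT spermatocyte replicate 1 gave 2 higher.

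Of 20 RNA-binding and translational regulators of germ cells 5 were higher and 3 lower, near or below the 26.4% and 24% of all genes. Fxr1, which activates stored mRNAs in spermatids, had 11.25, 11.49 and 11.31 in KO round spermatids, against 9.79, 9.74 and 10.61 in KO spermatocytes. Over the mixed arrays its difference was only 0.02, and those of Cpeb2 and of the ubiquitin ligase Herc4 were 0.01 and 0.09, beside 1.05 and 1.48 here. Rbm44 had 8.49, 8.51 and 8.33, against 9.74, 10.61 and 10.84 in KO spermatocytes. The DEAD-box helicases Ddx4 and Ddx25, counted with the piRNA list, and the Y-box proteins Ybx1, Ybx2 and Ybx3 differed by -0.57 to 0.03 and did not pass, though Ddx4 was lower without KO spermatocyte replicate 1 (-0.86, adjusted p = 0.0105).

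The X and Y chromosomes stood apart from the autosomes. Of 311 X-linked genes tested 204 were higher in KO round spermatids, or 65.6%, and 0 lower by limma, beside 24.5% higher and 25.5% lower among 9712 autosomal genes. The median difference was 0.99 for X-linked, 1.72 for 14 Y-linked and -0.04 for autosomal genes. At an adjusted p under 0.05, 4 X-linked genes were lower with preparation as a block, and 1 to 8 under 6 further settings. By array, the mean of X-linked genes minus the mean of autosomal genes was -0.77, -0.54 and -0.61 in KO round spermatids, against -1.34, -1.76 and -1.81 in KO spermatocytes. KO spermatocyte replicate 1, with the high Leydig signal, was the least low of its stage, and without it 229 X-linked genes were higher and 1 lower. In WT 141 of the 311 were higher and 5 lower, with a median of 0.55, and the difference of the steps passed for 1 X-linked gene above and 2 below WT.

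**Figure D4:**
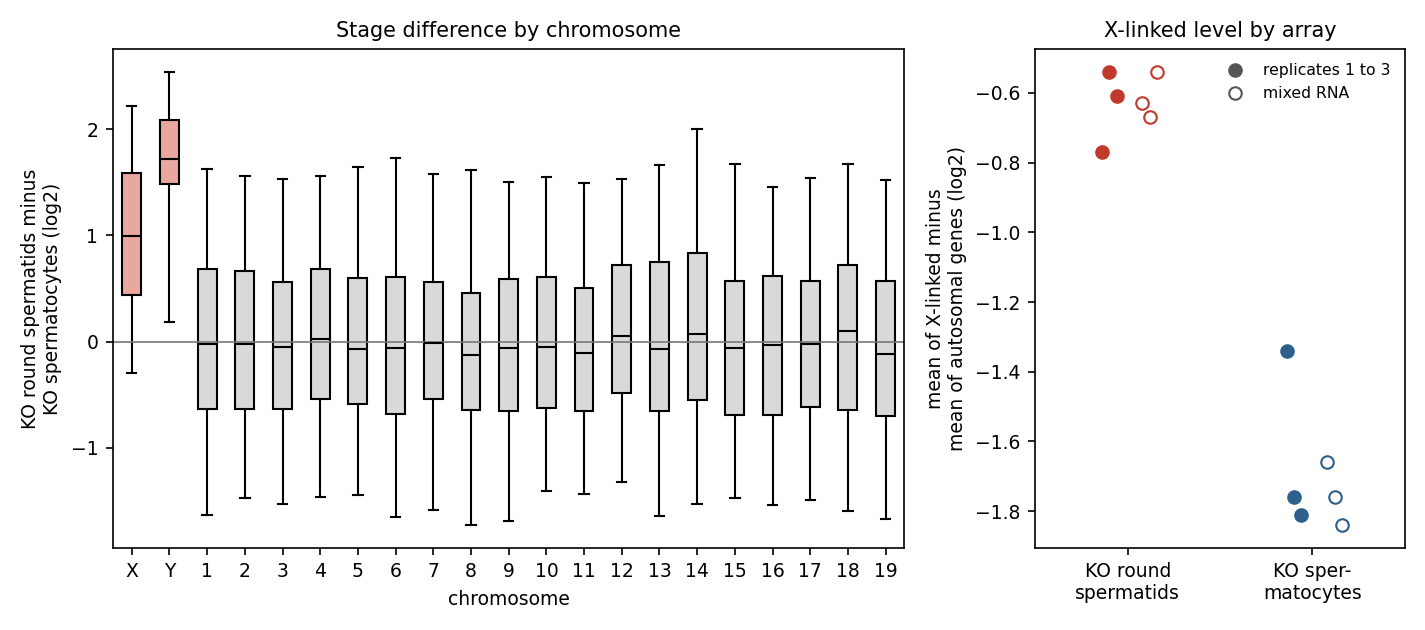
Left, stage difference (log2) of all tested genes by chromosome, with boxes from the first to the third quartile, the median as a line and whiskers at the 5th and 95th percentiles. Right, mean of X-linked minus mean of autosomal genes (log2) on each KO round spermatid array (red) and KO spermatocyte array (blue), filled for replicates 1 to 3 and open for mixed RNA. Median differences are 0.99 on the X and 1.72 on the Y, and between -0.13 and 0.09 on every autosome.

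All 20 measured sex-linked genes known from spermatids were higher (18 to 20 as single arrays were left out), beside 26.4% of all genes. Their median difference was 1.68. Sly, a Y-linked multicopy gene that restrains sex-linked transcription in spermatids, had 8.67, 9.25 and 8.31 in KO round spermatids, against 6.07, 6.45 and 6.10 in KO spermatocytes. Fthl17a, a ferritin-like gene on the X, had 8.78, 9.24 and 9.05, against 7.05, 7.46 and 7.08 in KO spermatocytes, and Akap14 had 10.72, 11.23 and 10.91, against 8.97, 9.03 and 8.86 in KO spermatocytes. The stages were apart by over 1 log2 unit in each. Cypt1, of the cysteine-rich perinuclear theca family, rose by 1.87, and Ssty1 and Ssty2 on the Y by 1.99 and 1.68. Probes of multicopy genes such as Sly, Ssty1, Ssty2 and Ssxb2 may read several copies. Among the largest X-linked rises, chosen after their values were seen, were Ssxb2, at 2.63, Cldn34b3, at 2.55, Samt2b, at 2.36, and Map7d3, at 2.34. Prps1, a nucleotide synthesis enzyme, had 8.70, 8.92 and 8.86 in KO round spermatids, against 6.86, 6.78 and 6.78 in KO spermatocytes. On the Y, Eif2s3y, a translation initiation factor, rose by 2.44 and Usp9y by 1.54.

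Autosomal retrogenes stand in for silenced X-linked parents in meiosis. Of 7 measured parents 1 was higher, beside 26.4% of all genes. It was Cstf2, a cleavage factor, at 8.31, 8.57 and 8.29 in KO round spermatids, against 7.27, 6.96 and 7.25 in KO spermatocytes. With preparation as a block 2 were higher, and without KO spermatocyte replicate 1, 6 of the 7. Pgk1, the X-linked phosphoglycerate kinase, had 6.89, 7.18 and 7.17 in KO round spermatids, against 7.27, 5.6 and 5.81 in KO spermatocytes, so replicate 1 decided its call (1.37 without it, adjusted p = 0.00048). Of 7 retrogenes 3 were higher (1 without KO round spermatid replicate 2 or 3), namely Pgk2, Gk2 and Cetn1. A fall was seen in 1, beside 26.4% of all genes higher and 24% lower. Timm8a2, the copy of the X-linked Timm8a1, had 7.76, 6.97 and 7.70, against 10.18, 10.38 and 9.84 in KO spermatocytes, the only retrogene that fell.

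Testis isoforms of energy metabolism were higher in 7 of 14 cases and lower in 2, beside 26.4% and 24% of all genes, and 4 were higher without KO spermatocyte replicate 2. Hk1, a hexokinase, had 10.50, 10.50 and 10.43 in KO round spermatids, against 8.69, 8.28 and 9.12 in KO spermatocytes. Gapdhs, the glycolytic enzyme of the sperm tail whose promoter is shown above, had 13.80, 13.81 and 13.60, against 12.87, 12.36 and 12.52 in KO spermatocytes. Slc2a3, a glucose transporter, went the other way with 13.63, 13.54 and 13.45, against 14.42, 14.60 and 14.78 in KO spermatocytes. In none of these did the stages overlap, nor did they in 57.9% of all genes. Of 13 somatic isoforms 2 were higher, Aldoa and Cycs, which was 1 with preparation as a block, 6 without KO spermatocyte replicate 1, 1 without KO round spermatid replicate 2, and 0 without any other single KO array.

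Of 25 proteasome genes 10 were lower, beside 24% of all genes, and 0 higher, with a median of -0.34, but 6 were lower with preparation as a block, 5 without KO round spermatid replicate 1 and 3 without KO round spermatid replicate 2 or KO spermatocyte replicate 2. Of 22 genes of oxidative phosphorylation 7 were lower, a share not far from the 24% of all genes, and 2 higher (1 higher without KO round spermatid replicate 2). Uqcrc2, of respiratory complex III, had 11.69, 11.71 and 12.03 in KO round spermatids, against 12.94, 13.22 and 13.06 in KO spermatocytes. Of 17 ribosomal protein genes 3 were lower, a share below that of all genes. On the mixed arrays alone these lists turned, with 10 higher and 4 lower, 9 and 3, and 6 and 0. Psma8, the proteasome subunit of germ cells, fell clearly: it had 9.32, 9.54 and 9.65 in KO round spermatids, against 11.36, 12.39 and 12.21 in KO spermatocytes. Of 17 genes of the spermatid ubiquitin pathway, Psma8 included, 8 were higher and 4 lower, beside 26.4% and 24% of all genes. Herc4 had 10.30, 10.56 and 10.47, against 8.83, 8.75 and 9.30 in KO spermatocytes, and the ligases Rnf133, Rnf138 and Siah1b rose by 1.32, 1.20 and 1.31. Rnf8 and Ube2b, which ubiquitinate histones in the germ line, fell by 1.42 and 0.92.

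Of 11 genes of the unfolded protein response 5 were lower and 1 higher, beside 24% and 26.4% of all genes. Herpud1, which clears misfolded proteins from the endoplasmic reticulum, had 10.52, 10.48 and 10.36 in KO round spermatids, against 12.20, 11.85 and 11.94 in KO spermatocytes. Of 13 heat shock and immediate early genes 4 were higher and 4 lower, shares not far from those of all genes. There were 2 higher without KO round spermatid replicate 1 or 2 or KO spermatocyte replicate 2. Dusp1, an immediate early phosphatase, rose by 1.51. Hspa4l, a chaperone of male germ cells, had 5.91, 5.73 and 5.10 in KO round spermatids, against 7.15, 7.52 and 7.18 in KO spermatocytes. Its 5.10 lay below the lowest detected signal of that array, 5.54. Of 10 common reference genes 2 were higher and 2 lower, below the shares of all genes, and 0 to 4 were higher as single KO arrays were left out. Spermatogonial genes were 4 higher and 1 lower of 10, beside the same 26.4% and 24% of all genes. There were 1 to 2 higher without KO round spermatid replicate 3 or KO spermatocyte replicate 1 or 3. Id4 had 6.66, 6.38 and 6.23 in KO round spermatids, against 8.42, 9.30 and 9.27 in KO spermatocytes.

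The KO step mostly ran in the direction of the WT step. Of 6399 genes changed in KO, 6191 had the same sign in WT (96.7%), and the standard deviation of the stage difference over all 12705 genes was 0.97 in KO and 1.20 in WT. In WT 7657 genes changed (60.3%), of which 3604 were higher (28.4%) and 4053 lower (31.9%). Of the genes higher in KO, 79.8% were also higher in WT, and these were 74.2% of the genes higher in WT. Of the genes lower in KO, 90.4% were also lower in WT, and these were 68.0% of the genes lower in WT. A call in 1 genotype alone is not a difference between them. By the limma test of the difference itself, 189 genes passed (1.49%), of which 166 had a KO stage difference below that of WT (1.31%) and 23 above it (0.181%). This count ranged from 82 without WT spermatocyte replicate 2 to 490 without WT spermatocyte replicate 3.

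**Figure D5:**
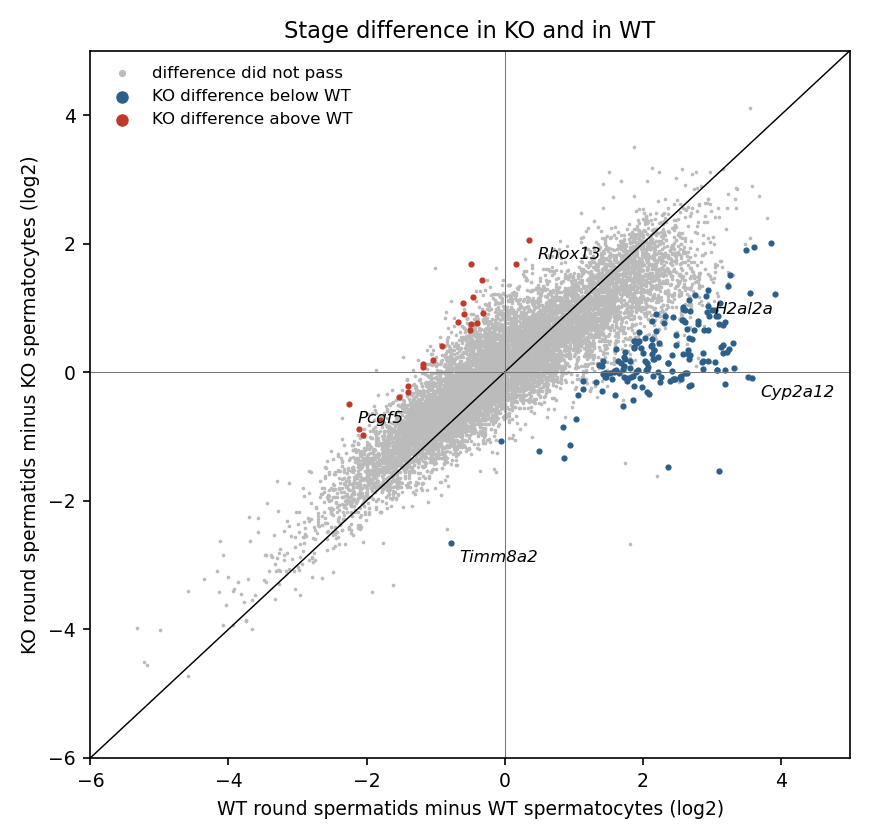
Stage difference (round spermatids minus spermatocytes, log2) in KO (vertical axis) against WT (horizontal axis), with 1 point per gene and the line of equal differences. Colored points are the 166 genes whose KO difference was below that of WT (blue) and the 23 above it (red), and many blue points lie near 0 in KO.

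Most of the 166 were genes that rose in WT and did not pass in KO: 163 were higher in WT, 118 had no KO call, and 77 were detected on no KO array of either stage. A probe entered where any 3 of the 12 unmixed arrays detected it, so these 77 entered through WT arrays alone. Their flat KO values follow in part from that entry. Cyp2a12, a cytochrome P450, had 4.56, 4.65 and 4.53 in KO round spermatids and 4.65, 4.72 and 4.64 in KO spermatocytes, below detection in both, against 11.23, 11.33 and 11.01 in WT round spermatids and 7.25, 7.20 and 8.34 in WT spermatocytes. Kiss1, the kisspeptin gene, had 4.94, 5.37 and 4.94 in KO round spermatids and 4.90, 4.79 and 4.67 in KO spermatocytes, against 8.11, 8.02 and 8.40 in WT round spermatids and 5.35, 5.17 and 5.40 in WT spermatocytes, and only WT round spermatid arrays detected it. For genes of this kind no stage step could be measured in KO, since both stages lay below detection. H2al2a was different, since it rose in both. It had 10.28, 10.30 and 10.08 in KO round spermatids and 8.96, 9.05 and 9.07 in KO spermatocytes, against 12.08, 12 and 12.08 in WT round spermatids and 8.87, 8.81 and 9.72 in WT spermatocytes. Its KO step of 1.19 was smaller than its WT step of 2.92 (difference -1.73 ± 0.31, SE, adjusted p = 0.0184). H2al3, H2al1m and Prm3 had differences of -1.34, -1.11 and -1.17 that did not pass (adjusted p = 0.0770, 0.0981 and 0.142).

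Timm8a2 was the reverse case of a fall that was larger in KO. Its 7.76, 6.97 and 7.70 in KO round spermatids and 10.18, 10.38 and 9.84 in KO spermatocytes stood against 9.48, 9.70 and 9.62 in WT round spermatids and 10.70, 10.52 and 9.89 in WT spermatocytes (difference -1.89 ± 0.37, SE, adjusted p = 0.0282). Among the 23 genes above WT, Pcgf5, a Polycomb subunit, had 12.95, 13.00 and 12.87 in KO round spermatids and 13.12, 13.66 and 13.54 in KO spermatocytes, against 11.35, 10.64 and 11.06 in WT round spermatids and 13.29, 13.27 and 13.25 in WT spermatocytes. Its levels in the stages lay closer in KO, with a step of -0.50 that did not pass (-0.66, adjusted p = 0.0177, without KO spermatocyte replicate 1) against -2.25 in WT. Rhox13, an X-linked homeobox gene of germ cells, had 9.28, 9.61 and 9.60 in KO round spermatids and 7.18, 7.75 and 7.40 in KO spermatocytes, against 9.22, 8.55 and 8.52 in WT round spermatids and 8.15, 8.59 and 8.50 in WT spermatocytes, so its rise of 2.05 in KO stood beside 0.35 in WT (adjusted p of the difference 0.0244).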

How the data were processed

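RNA of separated germ cells was measured on Illumina bead arrays, 24 in all, of which 12 carry unmixed RNA. The authors deposited a non-normalized intensity for each of 45281 probes on each array, with a detection p-value beside it, per the file headers; how these were computed is not given in the sources used here. A second deposited table holds intensity values that the authors had normalized, with array medians of 140.2 to 140.4, and was an alternative.

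Intensities were background-corrected, quantile-normalized over the 24 arrays and put on a log2 scale with neqc of limma 3.58.1 (R 4.3.3, offset 16). A probe was kept where 3 or more of the 12 unmixed arrays detected it at p under 0.01 (17401 probes, or 38.4%), and for each gene the probe of highest mean signal was tested, which left 12705 features, 2629 of them unnamed. Of the 45281 probes 34885 had 1 gene symbol in the platform annotation, 18 several and 10378 none. The 12 arrays of KO and WT, both stages, entered 1 fit without covariates (lmFit and eBayes, 8 residual degrees of freedom), with p-values adjusted by Benjamini and Hochberg over all features and a threshold of 0.05. On simulated data with 200 of 12705 genes changed, the KO step recovered 0%, 50%, 96% and 100% of log2 changes of 0.5, 1, 2 and 4, with 3.15% of calls false. Far more genes, 6399, were called in the data, so these shares are not the sensitivity of the comparison itself. The number of arrays limits the precision. A gene detected on no array of the lower stage has a fold given as a bound against the lowest signal among detected probes.

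Per the labels, arrays of a genotype with the same number share a cell preparation, so the numbers pair the stages. Their deviations from the group means correlated at 0.41, 0.39 and 0.04 in KO, against -0.45 to 0.25 for other pairs. Slide and scan date are not given in the sources used here, so neither was tested as a batch.

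The members and the gene lists were chosen with earlier results of these data known. Genes were named by rule: Nutm1, the 12 largest rises and falls among called genes whose stages do not overlap, the 6 genes each way whose KO and WT steps differed with the smallest adjusted p, up to 5 members of each list with the smallest p, and all stage markers and protamines. Other list members named were chosen after their values were seen. Alternatives were the preparation as a block, KO arrays alone, other normalization, offsets and filters, array weights, the mixed arrays alone and each array left out. Tables and figures were made with Python 3.11.15, pandas 2.3.3 and matplotlib 3.10.9.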

Additional observations from a re-analysis of the deposited data

Results flagged for a closer look

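The limma test of the difference between the KO and the WT stage step picked out 16 of the genes named by rule. Of the 166 genes whose KO difference was below that of WT, 77 were detected on no KO array. These, Cyp2a12 and Kiss1 among them, entered through WT arrays alone, and no KO step could be measured for them. In 8 of the 16 the KO difference was below that of WT. The difference was -3.68 for Cyp2a12, -2.86 for Slc39a4, a zinc transporter, and -2.57 for Kiss1 (adjusted p = 0.000958 each). It was -3.59 for Klk1b9, a kallikrein, -2.77 for Gsdmd, the pore-forming gasdermin D, and -2.21 for Tmem255b (adjusted p = 0.00269 each). For the spermatid histone H2al2a it was -1.73 (adjusted p = 0.0184), and for the mitochondrial import gene Timm8a2 -1.89 (adjusted p = 0.0282).

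In the other 8 the KO step was higher. The difference was 1.75 for Pcgf5 (adjusted p = 0.0104), 1.68 for Paqr3 (adjusted p = 0.0171) and 1.33 for Arf2, a vesicle GTPase (adjusted p = 0.0204). It was 1.70 for Rhox13 (adjusted p = 0.0244), 1.24 for Zyg11b, a substrate receptor of a ubiquitin ligase (adjusted p = 0.0268), and 1.22 for Tasp1, a protease (adjusted p = 0.0287). Atf4, a stress-responsive activator, differed by 1.07 (adjusted p = 0.0341) and Tfrc, the transferrin receptor, by 1.23 (adjusted p = 0.0407).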

How the results depend on the processing

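The count of genes changed in the KO stage step stayed within 1.5 times over the alternatives tried. With preparation as a replicate block 6453 genes changed, of which 6062 were among the 6399 with the same sign, and 6017 changed with KO arrays alone, 7062 with array weights and 8563 on the mixed arrays alone, of which 5441 were among the 6399 with the same sign. Leaving out 1 array gave 5208 (without KO round spermatid replicate 2) to 6607 (without KO spermatocyte replicate 1) changed genes, 2757 to 3415 of them higher and 2451 to 3192 lower. X-linked genes changed in 173 to 230 cases, and WT genes in 6652 to 8084. The median over all genes moved to at most 0.07. The block changed no count by over 1.5 times other than those given beside their lists (Leydig, proteasome, postmeiotic regulators, somatic energy isoforms and X-linked parents) and the X-linked genes that were lower.

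The count of genes whose KO step differed from the WT step was the least stable. It was 189 as reported, 204 with the replicate block, 337 with the authors' processed values, 293 with an offset of 50, 1123 with array weights, 3058 on the mixed arrays alone, and 82 to 490 as single arrays were left out. It was lowest without WT spermatocyte replicate 2 and highest without WT spermatocyte replicate 3; the cause was not tested. The mixed arrays share RNA, so their spread is too small for a test of this kind.

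Of 168 named genes called in KO, 136 passed under all 24 alternatives. On the mixed arrays alone the stage difference turned in sign, to -0.82 for Sycp1, -0.48 for Cdc6, 0.09 for Psmb4, 0.21 for Rpl27, 0.55 for Rps19, 0.03 for Ndufa9, 0.12 for Ndufb3, -0.39 for Dnajb9 and 0.14 for Ddit3; the cause was not tested. No other setting turned the sign of a called value.

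The 3 KO arrays per stage, pooled mice and enriched fractions limit these values. Changes of 0.5 on the log2 scale were not recovered in simulated data, where 200 of 12705 genes changed rather than the 6399 called here. Recovery in the data themselves was not measured. Probes of low signal give only bounds.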

Other observations

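Gene families defined by a shared symbol root are given by their counts alone, with no test, chosen after their values were seen as the extremes of 144 such families. The 6 families with the highest share of members higher in KO round spermatids, beside 26.4% of all genes, were Klf, Sox, Spata, Dnajb, Tex and Speer. Krüppel-like factors (Klf) were 9 higher and 0 lower of 11, and Sox factors 7 higher and 1 lower of 10. Of 24 Spata genes, named for spermatogenesis, 16 were higher and 1 lower, and of 31 Tex genes, named for expression in testis, 20 were higher and 2 lower. The co-chaperones Dnajb were 6 higher and 2 lower of 9, and the Speer genes 6 higher and 3 lower of 10.

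The 8 families with the highest share of lower members, beside 24% of all genes, were Srsf, Anapc, Supt, Commd, Prpf, Stk, Fbxw and Klk. The splicing factors Srsf were lower in 7 of 10 cases and Prpf in 6 of 10, with 0 higher. Subunits of the anaphase-promoting complex (Anapc) and Supt transcription factors were each lower in 5 of 8 with 0 higher, and Commd genes were 5 lower and 1 higher of 8. Stk kinases were 9 lower and 3 higher of 15, and the ubiquitin ligase adaptors Fbxw 6 lower and 3 higher of 10. Kallikreins (Klk) were lower in 6 of 10 with 0 higher, with a median of -2.38 in KO and -0.05 in WT, and several of them moved with the Leydig list.

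Probes of a gene did not always move together. Of 1803 called genes with more than 1 measured probe, 1479 had all probes on the same side (82%), and 135 had another probe called in the opposite direction.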
